A study of Mus musculus with 6 samples.

Results

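The circadian clock genes were examined in the nucleus accumbens (NAc), the part of the striatum that belongs to the reward circuit, after conditioned place preference (CPP) training of mice with morphine or saline. They comprised 10 genes chosen by name, namely Clock, Arntl (also called Bmal1), Per1, Per2, Per3, Cry1, Cry2, Nr1d1, Nr1d2 and Dbp. All entries that carried the GENCODE M21 identifier of 1 of these genes were taken from the event lists of the 6 libraries. An event is an alternative way in which the transcripts assembled from a library start, end or are spliced. All 10 genes were listed, with 193 events of 132823 in the series, told apart by class and position, and 16154 genes were listed in all.

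The 6 libraries came from adult male mice of the C57BL/6N strain, with no genetic modification named, 3 from saline-injected mice (the saline group) and 3 from morphine-injected mice (the morphine group). CPP training pairs an injection with a compartment, and both groups were trained in the same apparatus. A figure legend of the study describes each library as the tissue of 1 mouse, whereas the series description counts more mice than libraries in a group, so the spread between libraries may be that of single animals or of pools. The mice were kept under a reversed light cycle with lights on in the evening, and the hour at which the tissue of each library was taken is not given in the sources used here.

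The molecular clock is a feedback loop of transcription that runs in nearly every cell with a period close to a day. CLOCK and ARNTL form the activator that binds E-box sequences and switches on the Per, Cry and Nr1d genes. PER and CRY proteins accumulate and block the activator, NR1D1 and NR1D2 repress Arntl, and DBP carries the rhythm to output genes through D-box sequences. In the striatum, clock genes are known for their part in the daily rhythm of dopamine signalling and in responses to drugs of abuse.

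The lists recorded 4 families of events: exon skipping, intron retention, alternative exon ends (an exon with a second donor or acceptor) and transcript ends (first and last exons). The shorter and the longer form of an exon with alternative ends were counted as separate events. A longer form can hold a whole intron that is also listed as retained. The files held no usable expression level, so every value below counts listed events, not RNA abundance. Listing depends on depth and on which isoforms were assembled, and a higher count can come from more RNA, more isoforms or both, which cannot be told apart. The relative depth ran from 1 in saline library 1 to 1.59 in morphine library 2. A library held between 54660 and 62209 events in 14243 to 14956 genes. All 9 marker genes of medium spiny neurons, the main neurons of the NAc, were listed in all 6 libraries, as were all markers of cortical neurons (3 of 3), astrocytes (4 of 4), oligodendrocytes (4 of 4), microglia (4 of 4) and ependyma (3 of 3), with 2 of 3 for endothelium and 2 of 4 for the suprachiasmatic nucleus. The other suprachiasmatic markers, Six6 and Lhx1, were listed in 5 libraries, all but saline library 1, and the other endothelial marker, Cldn5, in none. Being listed is not a level, and it does not tell these cell types apart.

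Among the clock genes, Per3 had the most events and was the gene whose counts did not overlap between the groups. The 3 saline libraries listed 11, 12 and 4 Per3 events, and the 3 morphine libraries listed 36, 19 and 32. Every morphine library thus lay above every saline library. The mean was 9 ± 4.36 for saline and 29.0 ± 8.89 for morphine (SD, n = 3), 3.22-fold higher, with p = 0.1 in an exact permutation test (two-sided), the smallest p that 3 against 3 libraries can give. Per3 was 1 of 10 clock genes without overlap, and over all listed genes 1.80% did not overlap with higher counts in morphine and 0.966% with higher counts in saline. Of genes with a mean of at least 5 events per library, 4.46% did not overlap with higher counts in morphine and 2.42% with higher counts in saline. A difference of means as large as the 20 events of Per3 was found in 7 of 16154 genes with higher counts in morphine, Per3 included, and in 1 with higher counts in saline.

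**Figure D1:**
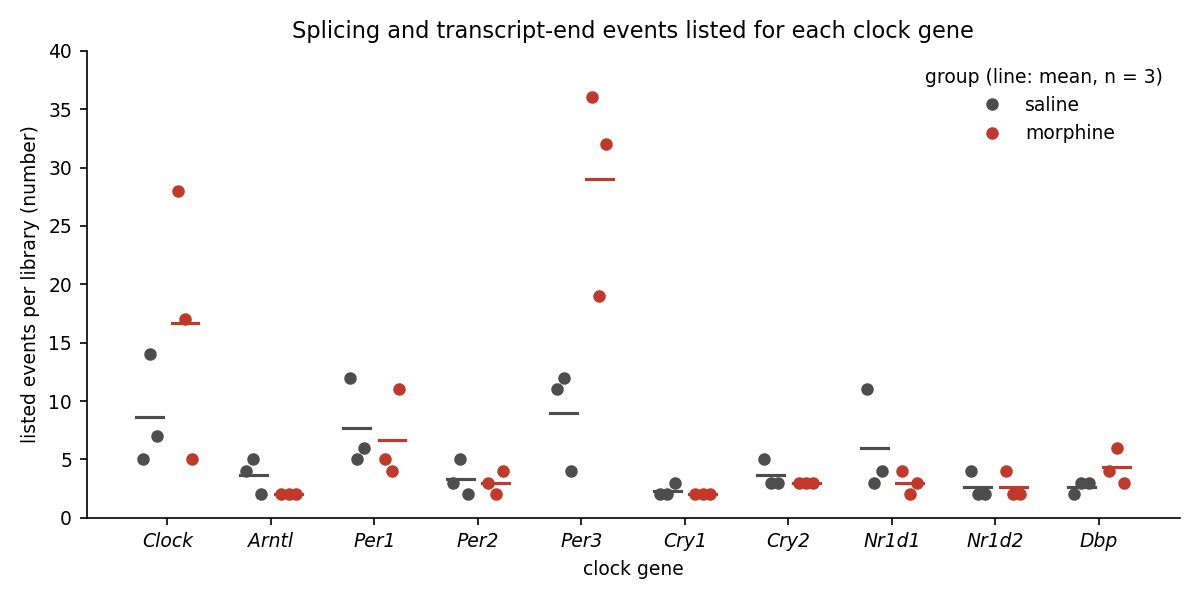
Number of listed events per library (vertical axis) for each of the 10 clock genes (horizontal axis), with points for the 3 saline and the 3 morphine libraries and lines for the group means. Per3 lay between 4 and 12 in saline and between 19 and 36 in morphine, and the counts of the other genes overlapped between the groups.

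Counted over the 10 genes together, the saline libraries listed 59, 54 and 36 events and the morphine libraries 91, 59 and 67. Saline library 1 and morphine library 2 had the same number, so the groups were not separated. The mean was 49.7 ± 12.1 for saline and 72.3 ± 16.7 for morphine (SD, n = 3; exact permutation test, two-sided, p = 0.2). Without Per3, the counts were 48, 42 and 32 in saline and 55, 40 and 35 in morphine, with means of 40.7 ± 8.08 and 43.3 ± 10.4 (exact permutation test, two-sided, p = 0.8). The difference of 22.7 events was 13.3 without morphine library 1, which held the most clock gene events. The clock genes made up between 0.0630% (saline library 3) and 0.146% (morphine library 1) of the events of a library.

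By family, alternative exon ends of the clock genes were listed 0, 4 and 0 times in the saline libraries and 16, 10 and 11 times in the morphine libraries. Each form of an exon is counted in these numbers, so fewer exons than events were concerned. These counts did not overlap, with means of 1.33 ± 2.31 and 12.3 ± 3.21 (SD, n = 3; exact permutation test, two-sided, p = 0.1, and 0.4 after Benjamini-Hochberg adjustment over the 4 families). Without Per3, the counts were 0, 4 and 0 in saline and 8, 6 and 2 in morphine, and the groups overlapped (difference of means 4 in place of 11; exact permutation test, two-sided, p = 0.2). Over all genes of the series, the mean number of such events was 9.22% higher in morphine. Retained introns of the clock genes numbered 25, 15 and 5 in saline and 35, 17 and 24 in morphine, and the groups overlapped (exact permutation test, two-sided, p = 0.3, adjusted p = 0.6). Over all genes, retained introns were 23.9% more numerous in morphine, at 7925, 5435 and 5409 in the saline libraries and 9534, 7291 and 6432 in the morphine libraries. Exon skipping was rare, with 1, 4 and 2 events in saline and 3, 3 and 4 in morphine (exact permutation test, two-sided, p = 0.5, adjusted p = 0.667). Transcript ends hardly varied, with 33, 31 and 29 in saline and 37, 29 and 28 in morphine (exact permutation test, two-sided, p = 1).

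**Figure D2:**
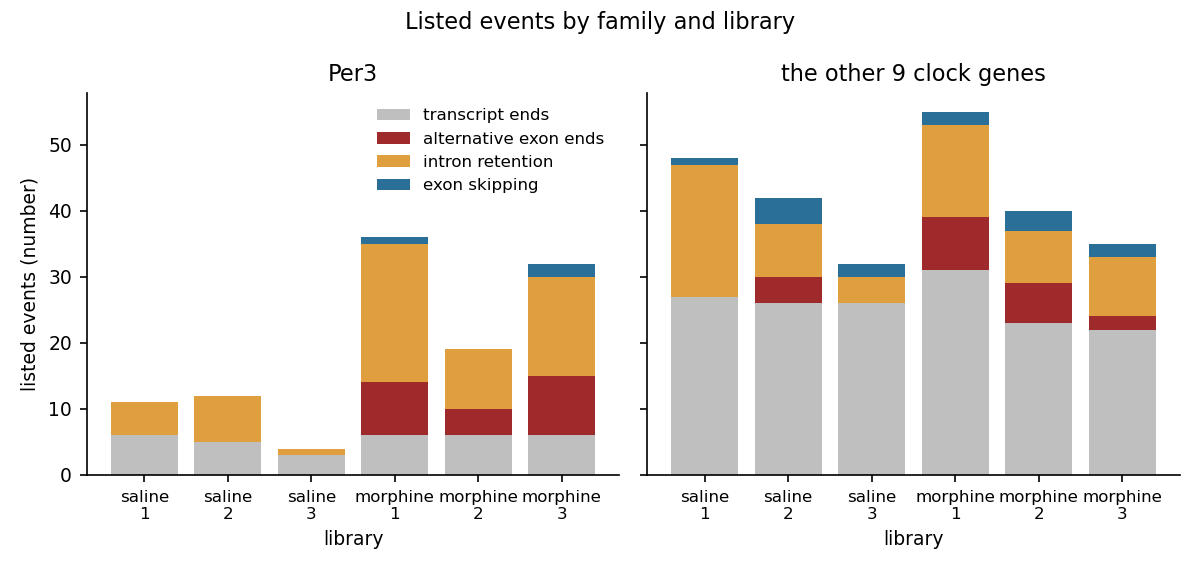
Stacked counts of listed events in each of the 6 libraries by family, for Per3 (left) and for the other 9 clock genes (right), on a shared vertical axis. Alternative exon ends of Per3 were absent from the 3 saline lists and numbered 8, 4 and 9 in the morphine lists, while transcript ends of the other genes lay between 22 and 31.

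Most clock gene events were seen in a single library. Of the 193 events, 129 were listed in 1 library only (66.8%, exact binomial 95% interval 59.7% to 73.4%) and 20 in all 6 (10.4%, 6.45% to 15.6%). Over all genes, 50.5% of events were in 1 library and 20.5% in all 6. The mix of families differed, with 82 of 193 clock gene events being retained introns, against 26298 of 132823 over all genes. Within families, the shares in 1 library were 72.0% against 67.5% for retained introns and 49.3% against 43.2% for transcript ends. They were 91.7% against 61.5% for alternative exon ends and 50% against 44.2% for the 8 exon skips. Of transcript ends, 28.4% were in all 6 libraries, against 29.8% over all genes. The intervals cover counting error only, and the events within a gene depend on each other. Of the 129 single-library events, 86 belonged to Per3 or Clock, and morphine library 1 held 46 of the 129, of which 40 were in these genes. The 20 events common to all libraries were 10 transcript starts, 9 transcript ends and the skipping of exon 18 of Clock. All 20 were at annotated positions, against 97.2% of the events in all 6 libraries over all genes. For starts and ends, only the splice-side coordinate was compared with the annotation. No retained intron event of a clock gene (0 of 82) was listed with the same boundaries in all 6 libraries, against 1.70% of the retained intron events of all genes. Intron 6 of Per3 was nevertheless retained in all 6, alone or together with neighbouring introns. A total of 135 clock gene events (69.9%) were at annotated positions, compared with 64.6% over all genes. Within families, the share was higher only for retained introns (97.6% against 90.7%). It was lower for transcript ends (46.3% against 55.1%), alternative exon ends (50% against 56.2%) and exon skipping (75% against 79.4%).

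**Figure D3:**
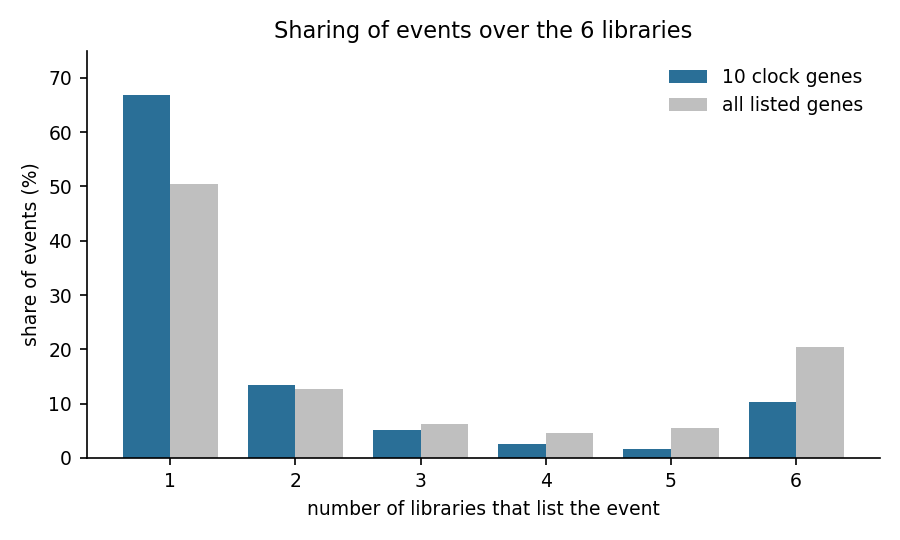
Share of events (vertical axis, percent) by the number of libraries that list them (horizontal axis), for the 10 clock genes and for all listed genes. Clock gene events had 66.8% in a single library and 10.4% in all 6, against 50.5% and 20.5% over all genes. All families are pooled, and their mix differs between the clock genes and all genes.

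Only 3 of the 193 clock gene events (1.55%) were listed in each library of 1 group and in no library of the other, against 0.658% of all events in the series. All 3 were in Per3, with 2 present in morphine, against 0.381% of all events, and 1 present in saline, against 0.277%. These 2 events in morphine concerned the same exon, exon 4, and are therefore not separate observations.

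Clock encodes a basic helix-loop-helix subunit of the activator and lies on chromosome 5, minus strand. It had 49 events, the second highest number of the set, with 5, 14 and 7 in the saline libraries and 28, 17 and 5 in the morphine libraries. Morphine library 3 was as low as the lowest saline library, and the groups overlapped (means 8.67 ± 4.73 and 16.7 ± 11.5, SD, n = 3; exact permutation test, two-sided, p = 0.4). The difference of 8 events fell to 2.33 without morphine library 1. Alternative exon ends of Clock were listed 0, 2 and 0 times in saline and 8, 4 and 0 times in morphine.

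The splicing event that the libraries shared most was in Clock. Skipping of exon 18 was listed in all 6 libraries. This exon holds 90 coding bases, a multiple of 3, so leaving it out keeps the reading frame. Skipping of exon 7 was listed in saline libraries 2 and 3 and morphine library 2, and its 92 coding bases are not a multiple of 3, so leaving it out shifts the frame. The exons are shown because they were the only clock gene exons skipped in 3 or more libraries. Exon 18 lies at chr5:76235766-76235855 and exon 7 at chr5:76262675-76262766 (GRCm38, minus strand, exons of the main coding transcript in GENCODE).
Clock exon 18: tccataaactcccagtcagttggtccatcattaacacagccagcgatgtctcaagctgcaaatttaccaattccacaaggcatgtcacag
Clock exon 7: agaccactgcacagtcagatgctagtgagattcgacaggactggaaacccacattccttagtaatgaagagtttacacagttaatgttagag

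Other Clock events concerned introns and transcript ends. Intron 3, of 7069 nt, was listed as retained in 5 libraries, all but saline library 3. Intron 12, of 190 nt, was listed as retained in morphine libraries 1 and 2, and it also lay inside a listed exon in saline library 3. First exons with donors at positions 76304368 and 76304655 were found in all 6 libraries. The outer end of the second varied between 76305440 and 76305996, which is 648 to 1204 nt upstream of the nearest RefSeq start, inside or beyond the antisense gene Gm7467 (76304876 to 76305527, plus strand). The last exon with its acceptor at 76216878 was listed in saline libraries 1 and 2 and morphine libraries 1 and 2. In saline library 3 and morphine library 3 the listed last exon began at 76235855, the start of exon 18, and read into the intron behind it, as in a shorter annotated transcript.

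Arntl encodes the DNA-binding partner of CLOCK and lies on chromosome 7, plus strand. It had 7 events, with 4, 5 and 2 in saline and 2 in each morphine library, and the groups touched at 2 (means 3.67 ± 1.53 and 2, SD of the latter 0, n = 3; exact permutation test, two-sided, p = 0.4). The 2 events left in morphine were the annotated first exon ending at 113207644 and the last exon beginning at 113313459, both listed in all 6 libraries. No retained intron event of Arntl was listed in any library. A non-coding exon, exon 2, of 128 bases, was skipped in saline library 2 only, and both extra starts came from saline library 1.

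Per1 is a rapidly induced member of the Period family, which forms the repressor of the loop, and lies on chromosome 11, plus strand. Its 20 events were spread as 12, 5 and 6 in saline and 5, 4 and 11 in morphine, with overlapping groups (means 7.67 ± 3.79 and 6.67 ± 3.79, SD, n = 3; exact permutation test, two-sided, p = 0.6). Saline library 1 and morphine library 3 were the high libraries. Intron 4, of 100 nt, was retained in saline libraries 1 and 3 and morphine library 3. Introns 13 (161 nt) and 20 (141 nt) were both retained in saline library 1 and morphine library 3, so the same libraries shared several short introns. The Per1 introns listed as retained had a median length of 141 nt, close to the median of 133 nt over all introns of the gene. First exons with donors at 69095303 and 69099008 were listed in all 6 libraries, and these belong to the 2 annotated starts that lie nearly 4 kb apart, since the former began 3707 to 3732 nt upstream of the RefSeq start and the latter 1 nt upstream of it. The last exon with its acceptor at 69109081 was also listed in all 6 libraries.

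Per2, the other Period gene with a leading part in the repressor, lies on chromosome 1, minus strand, and varied little. The saline libraries listed 3, 5 and 2 events and the morphine libraries 3, 2 and 4 (exact permutation test, two-sided, p = 1). Its first exon with the donor at 91459173 was in all 6 libraries, and the annotated last exon beginning at 91418020 in 5, all but saline library 2. Intron 13, of 503 nt, was retained in saline library 2 and morphine library 3, and introns 20 and 21 together in saline library 2 and morphine library 1. Each of these was thus split over both groups.

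Per3 encodes the third Period protein, which is not needed for the rhythm itself in mice and has been linked to sleep. It lies on chromosome 4, minus strand, at 151003652 to 151044665 (GRCm38), and its main coding transcript has 21 exons. Of its 69 events, 33 were retained introns, 17 alternative exon ends, 17 transcript ends and 2 exon skips, and 43 were at annotated positions. Retained introns were listed 5, 7 and 1 times in saline and 21, 9 and 15 times in morphine (means 4.33 ± 3.06 and 15.0 ± 6, SD, n = 3; exact permutation test, two-sided, p = 0.1), and 2.17% of genes with such events had non-overlapping counts higher in morphine. Alternative exon ends were listed 0, 0 and 0 times in saline and 8, 4 and 9 times in morphine (exact permutation test, two-sided, p = 0.1), and 1.13% of genes with such events had non-overlapping counts higher in morphine. Transcript ends of Per3 numbered 6, 5 and 3 in saline and 6 in each morphine library. The higher Per3 count in morphine thus lay mainly in the retained introns and alternative exon ends. These families are not independent. Several longer forms of exons with alternative ends spanned introns that were also listed as retained. In morphine library 3, for example, the form at 151029136 to 151031991 held intron 7.

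Part of the Per3 count rested on approximate events, whose exon boundaries match only in part. Some of them repeated a position that was also counted as an exact event, such as the retention of intron 6. Without them, Per3 had 11, 12 and 4 events in saline and 25, 14 and 23 in morphine, and the groups still did not overlap, against 1.76% of all genes (exact permutation test, two-sided, p = 0.1). The difference of means was then 11.7 in place of 20. No approximate event of Per3 was listed in saline. Within the groups, the deepest morphine library, library 2 at 1.59, had the fewest Per3 events in that group, and the deepest saline library, library 3 at 1.37, had the fewest in saline. The part of depth in the group difference was not tested.

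Exon 4 of Per3 carried both events found in all morphine libraries and in no saline library. They were the annotated exon of 202 bases at chr4:151041272-151041473 and a longer, unannotated version of 1027 bases at chr4:151041272-151042298, which reached upstream into intron 3 (GRCm38, minus strand). The annotated exon counts as such an event only beside another form. Its absence from these events in saline therefore does not mean that the exon itself was absent there. In the saline libraries, exon 4 was listed as joined to exon 3 without splicing, so that intron 3, of 1202 nt, lay inside a listed exon in 3 of 3 saline libraries and 0 of 3 morphine libraries. Both groups thus listed transcripts that read into intron 3, but with different boundaries. Morphine libraries 1 and 3 also listed the skipping of an unannotated exon of 49 bases at 151042250 to 151042298, at the upstream edge of the longer version. The annotated exon is shown because both events turn on it. Its 202 coding bases are not a multiple of 3.
Per3 exon 4: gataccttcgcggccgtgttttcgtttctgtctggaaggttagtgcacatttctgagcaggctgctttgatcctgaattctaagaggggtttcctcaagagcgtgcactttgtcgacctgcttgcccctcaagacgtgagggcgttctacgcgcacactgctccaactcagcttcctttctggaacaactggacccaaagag

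The event found in all saline libraries and in no morphine library was a last exon of Per3 with its acceptor at 151008378, which read through exon 20, intron 20 and exon 21 as 1 piece. Intron 20, of 2268 nt, was nevertheless inside a listed last exon in morphine libraries 1 and 2 as well, which began further upstream at 151010498 and 151009433. The event was therefore specific to its boundary, and a listed exon spanned intron 20 in 5 of 6 libraries. The annotated last exon with its acceptor at 151005959 was listed in all 6. At the other end of the gene, 5 libraries listed a first exon with its donor at 151043559, which joins exon 1, intron 1 and exon 2. Saline library 3 listed a first exon that ran on to the end of exon 4, and the annotated first exon, with its donor at 151044108, was listed in morphine library 2 only.

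The Per3 introns whose retention was listed in 3 or more libraries all lay within introns 5 to 10, and each was listed in both groups. Single intron 6 (1865 nt) was listed as retained in saline libraries 1 and 2 and morphine libraries 1 and 3. Intron 7 (2670 nt) was listed in saline library 2 and all 3 morphine libraries, while introns 9 (2530 nt) and 10 (912 nt) were both listed in saline libraries 1 and 2 and morphine library 3. The 10 retained introns of Per3 had a median length of 1057 nt, close to the median of 1085 nt over all introns of the gene. Neighbouring introns were also retained together. Introns 9 to 10 were retained together in saline libraries 1 and 2 and morphine libraries 1 and 3, and introns 6 to 7 in saline library 2 and morphine libraries 1 and 3. Introns 5 to 7 were retained together in saline library 1 and all 3 morphine libraries, and introns 5 to 6 in saline library 3 and morphine libraries 2 and 3.

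A count of introns is less affected by how many isoforms share an intron than a count of events. Counted as introns that lie inside any listed exon, a measure added after seeing the data, Per3 had 8, 8 and 6 of its 20 introns spanned in saline and 13, 11 and 8 in morphine. Morphine library 3 equalled the 2 highest saline libraries, so the groups overlapped (means 7.33 ± 1.15 and 10.7 ± 2.52, SD, n = 3; exact permutation test, two-sided, p = 0.3), and over all coding genes 0.699% did not overlap with higher counts in morphine and 0.321% with higher counts in saline. Of the 15 Per3 introns spanned in any library, introns 1 and 6 were spanned in all 6 libraries, and introns 5, 7, 9, 10 and 20 in 5. Over the 10 clock genes, 2 of 52 spanned introns were thus spanned in all 6 libraries, against 5.44% of all spanned introns in the series. Intron 3 was spanned in all saline and no morphine libraries, against 0.358% of all spanned introns. Intron 13, of 518 nt, was spanned in all morphine and no saline libraries, against 0.768%. The single events over intron 13 differed in their boundaries between the morphine libraries, and the retained intron 13 event itself was listed in morphine libraries 1 and 2.

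**Figure D4:**
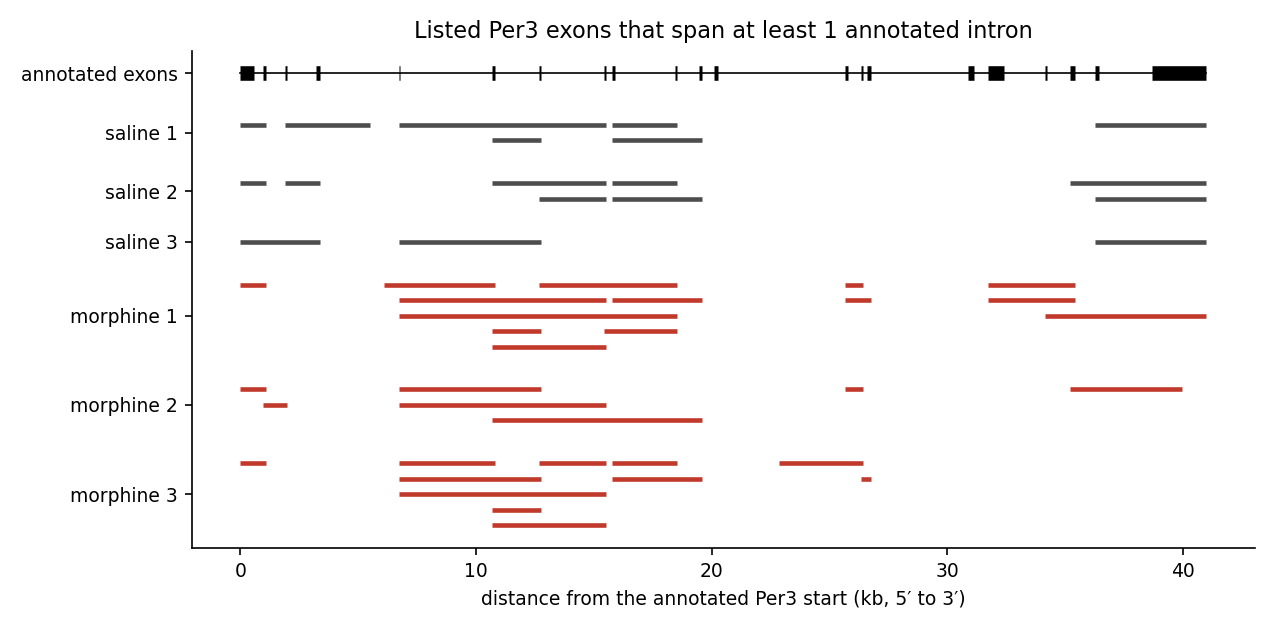
Listed Per3 exons that span at least 1 annotated intron, drawn to scale from the annotated start (horizontal axis, kb) for each library, under the annotated exons (black). Lines in the stretch of introns 5 to 10 are seen in both groups, lines over intron 3 in the 3 saline libraries only, and lines over intron 13 in the 3 morphine libraries only.

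Per3 lies on the same strand inside an intron of Camta1, a transcription factor gene. Of 13 annotated Camta1 transcripts, 1 spans Per3, and none of its exons lies inside Per3. Camta1 had 11, 11 and 16 events in saline and 12, 11 and 12 in morphine, so its counts overlapped between the groups. Unspliced Camta1 RNA over Per3 cannot be told apart from unspliced Per3 RNA by strand, and its part in the retained introns of Per3 was not tested. In saline library 1 and morphine library 3, 1 listed Per3 last exon lay outside the annotated gene, at 150978602 and 150967629, within the Camta1 span.

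Cry1, a cryptochrome that blocks the activator, lies on chromosome 10, minus strand, and was among the genes with the fewest events. It had 2, 2 and 3 events in saline and 2 in each morphine library. The first exon with its donor at 85184314 and the last exon with its acceptor at 85132307 were listed in all 6 libraries, and none of its 12 introns was spanned in any. Cry2, its partner on chromosome 2, minus strand, had 5, 3 and 3 events in saline and 3 in each morphine library. The first exon with its donor at 92433812 and both last exons, with acceptors at 92405820 and 92411767, were listed in all 6 libraries. The extra events of Cry2, retained introns 2 and 7, came from saline library 1 alone. For both cryptochromes, p was 1 in the exact permutation test (two-sided).

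Nr1d1 encodes the nuclear receptor REV-ERBα, a repressor of Arntl, and lies on chromosome 11, minus strand. It had 11, 3 and 4 events in saline and 4, 2 and 3 in morphine, with saline library 1 apart from the rest (means 6 ± 4.36 and 3 ± 1, SD, n = 3; exact permutation test, two-sided, p = 0.5). Without that library, the difference of -3 events became -0.5. The last exon with its acceptor at 98768419 was listed in all 6 libraries, but the first exon differed. Its donor was at 98770188 in saline libraries 1 and 3, at 98771793 in saline library 2, at 98771437 in morphine library 1 and at 98771200 in morphine library 3, all of which read past exon 1 of the main transcript. The first exon that ended at the donor of exon 1, 98774718, was listed in morphine library 2 only. Of its 7 introns, 6, 2 and 6 were spanned in saline and 6, 0 and 5 in morphine, and intron 7 was not spanned in any library. The 3′ end of Nr1d1 overlaps Thra on the opposite strand, and Thra had 3 events in every library.

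Nr1d2, which encodes the related receptor REV-ERBβ, lies on chromosome 14, minus strand. It had 4, 2 and 2 events in saline and the same numbers in morphine. Its first exon with the donor at 18238811 and last exon with the acceptor at 18206881 were listed in all 6 libraries. Intron 3, of 3173 nt, was retained in saline library 1 and morphine library 1, the libraries with the most retained introns of their groups over all genes.

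**Figure D5:**
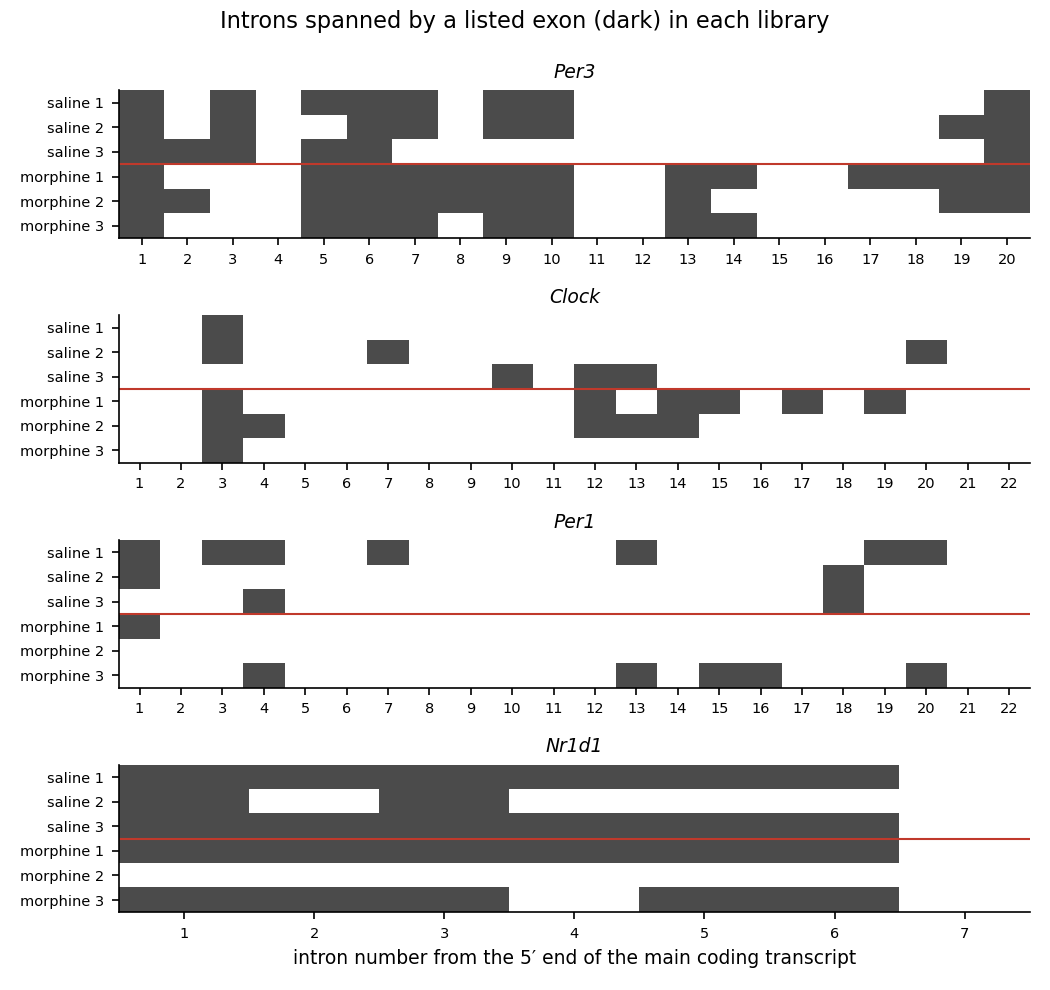
Introns (horizontal axis, numbered from the 5′ end of the main coding transcript) that lay inside a listed exon (dark) in each of the 6 libraries, for Per3, Clock, Per1 and Nr1d1. Per3 introns 1 and 6 were dark in all 6 libraries, intron 3 in the saline libraries and intron 13 in the morphine libraries, and Nr1d1 had 6, 2, 6, 6, 0 and 5 of 7 introns dark from top to bottom.

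Dbp encodes the D-box binding activator and lies on chromosome 7, plus strand. It had 2, 3 and 3 events in saline and 4, 6 and 3 in morphine, and the groups touched at 3 (means 2.67 ± 0.577 and 4.33 ± 1.53, SD, n = 3; exact permutation test, two-sided, p = 0.3). In an alternative count, events were told apart by all their coordinates and their exon pattern. This count also took the inclusion and the skipping entries of a feature separately. Dbp then had 2, 3 and 3 events in saline and 5, 8 and 4 in morphine. These groups did not overlap, against 1.94% of all genes with higher counts in morphine (exact permutation test, two-sided, p = 0.1). The rise over the main count was found only in libraries that listed the skipping of exon 2 or retained intron 2, features with such paired entries. The first exon with its donor at 45705762 and the last exon with its acceptor at 45709665 were listed in all 6 libraries. Skipping of exon 2, at chr7:45706606-45707016, was listed in morphine libraries 2 and 3 only, an event named after its values were seen. This exon of 411 coding bases, a multiple of 3, is GC-rich (74.2%), and its first and last 45 bases are given (GRCm38, plus strand, main coding transcript).
Dbp exon 2, first bases: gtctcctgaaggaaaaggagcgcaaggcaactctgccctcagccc
Dbp exon 2, last bases: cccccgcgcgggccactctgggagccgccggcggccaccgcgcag
Intron 2 of Dbp, of 1243 nt, was retained in morphine libraries 1 and 2, while saline libraries 2 and 3 listed a long first exon, with its donor at 45708471, that includes the same intron. Counted as spanned introns, Dbp had 0, 2 and 2 in saline and 2, 1 and 0 in morphine, so the direction differed from that of the event count. Dbp overlaps the opposite-strand gene Sphk2, which had 4 events in every library except morphine library 1, with 5.

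The listed first exons were compared with RefSeq starts, and the 250 bases upstream of these starts were searched on both strands for sequences that clock proteins are known to bind. RefSeq (GRCm38.p6) held 13 starts for 9 of the 10 genes. The listed starts of Arntl, Cry1 and Per3 fell on a RefSeq start (0 nt apart), that of Cry2 was 33 nt inside the gene, and those of Nr1d2 and Dbp were 21 and 159 nt upstream. The E-box, CACGTG, was found before 2 of the 13 starts, 1 of Per1 and that of Cry1, and before 6.02% of 32851 starts of all genes. The D-box, TTATGTAA, was found before 1 of the 13, that of Per3, and before 0.819% of all. The Per3 sequence held it at 2 places, beginning 205 and 158 bases upstream of the start. The cyclic AMP response element, TGACGTCA (1.55% of all), and the core of the ROR element, TAGGTCA (2.23% of all), were found before 0 of the 13. A match is a sequence of letters and not a measured binding site. The 3 sequences with a match are shown with the motif in capitals. They are Per3 at chr4:151044666-151044915 (minus strand), Per1 at chr11:69098699-69098948 (plus strand) and Cry1 at chr10:85185055-85185304 (minus strand).
Per3 upstream: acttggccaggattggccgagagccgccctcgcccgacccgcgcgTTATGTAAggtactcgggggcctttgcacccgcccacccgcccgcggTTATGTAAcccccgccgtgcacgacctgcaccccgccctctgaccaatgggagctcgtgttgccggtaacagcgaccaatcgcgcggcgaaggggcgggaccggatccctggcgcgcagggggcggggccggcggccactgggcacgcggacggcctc
Per1 upstream: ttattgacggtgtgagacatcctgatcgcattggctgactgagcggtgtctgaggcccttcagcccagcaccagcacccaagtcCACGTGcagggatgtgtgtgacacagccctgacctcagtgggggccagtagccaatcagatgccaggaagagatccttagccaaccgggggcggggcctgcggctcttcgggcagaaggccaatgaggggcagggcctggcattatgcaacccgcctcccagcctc
Cry1 upstream: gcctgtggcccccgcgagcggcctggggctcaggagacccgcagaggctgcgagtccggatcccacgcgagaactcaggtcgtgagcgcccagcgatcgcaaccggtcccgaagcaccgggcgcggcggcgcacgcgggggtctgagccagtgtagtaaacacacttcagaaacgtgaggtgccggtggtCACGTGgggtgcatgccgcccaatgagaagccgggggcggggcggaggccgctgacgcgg

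Of 22 other genes of the clock and its output, chosen from textbook knowledge and including Npas2, the Ror genes, Bhlhe40, Bhlhe41, Nfil3, Tef and Hlf, all were listed in all 6 libraries. Their events summed to between 97 and 102 in the saline libraries and between 85 and 129 in the morphine libraries. None of the 22 had non-overlapping counts, where 1.80% of all genes had them with higher counts in morphine and 0.966% with higher counts in saline. None of their events was specific to a group, where 0.658% of all events in the series were. With shares this low, finding none among 22 genes or among their events says little about them. Among the 10 and the 22 genes, Per3 was thus the only one with non-overlapping counts when events were identified by their splice positions. With all coordinates as identity, and inclusion and skipping entries counted separately, the counts of Dbp did not overlap either. Those of the 22 genes overlapped under this identity (0 of 22 without overlap).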

How the data were processed

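Per the study's methods, total RNA from the NAc was made into strand-specific libraries, mapped with HISAT2 and assembled with StringTie. The tool that extracted the events and the genome build are not given in the sources used here. The event positions match GRCm38, where between 99.3% and 99.5% of the entries of a library had a gene identifier in GENCODE M21. The deposited event lists (unit: genome positions) carry a column named FPKM that holds only 0 and negative whole numbers to -25, which was not used as a level.

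The entries for the inclusion and the skipping of a feature were counted once, so that 20 event types gave 12 classes and 4 families. Only the alternative identity by all coordinates and pattern counted these entries separately. The forms of an exon with alternative ends were each counted. An event was identified by class, gene, strand and position, and starts and ends by their splice-side coordinate. Differences of group means were tested by exact permutation over libraries (two-sided), and p-values were not adjusted over the genes. The relative depth came from the ratio of the deposited read count to the FPKM value of the authors' lncRNA table, over 91 values of at least 10 counts. Only 4 of the 31 transcripts of that table link the groups, so the depth of morphine relative to saline libraries rests on these. Its fold changes and p-values are the authors' own and were not used. The number of per-sample columns left unused was 0. Groups followed the treatment labels, with replicate numbers given as names. The genes, lists and tests were chosen with earlier results of these data known. Events named were those in 3 or more libraries, those specific to a group, and starts and ends in all libraries, while other events and spanned introns were chosen after seeing the data. The routines were tested on simulated lists. The tools were scipy 1.17.1, pandas 2.3.3, numpy 2.4.6 and matplotlib 3.10.9 under Python 3.11.15.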

Additional observations from a re-analysis of the deposited data

How the results depend on the processing

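Over the alternatives run, 177 values kept their direction and side of the threshold or moved within their spread, 11 moved and 11 reversed. Since 3 against 3 libraries give no p under 0.1, no difference could pass the usual threshold, and with a library left out the smallest p was 0.2, so p-values say nothing about stability here. Identity by all coordinates counted the inclusion and the skipping entries of a feature separately. Its values, here and below, therefore include such repeated entries and are not a stricter count of the same events. The Per3 difference of 20 events ranged from 16.5 to 25 when each library was left out, and was 40.3 with all coordinates as identity and 11.7 without approximate classes. The difference over all clock genes ranged from 13.3 to 29.3 with a library left out, and was 43.3 with all coordinates as identity and 10.3 without approximate classes. The difference in alternative exon ends, 11 events, was 4.67 without approximate classes and 4 without Per3.

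Identity by all coordinates and pattern gave 76.1% of clock gene events in 1 library and 5.01% in all 6, and without approximate classes 58.3% were in 1 library. The difference in transcript ends, 0.333 events, was -0.333 at annotated positions only, -0.00131 percentage points as a share of the family and -1 without Per3, and lay between -2.5 and 2 with a library left out. Retained introns differed by -0.333 without Per3, and by 5.33 to 15.3 with a library left out, 30 with all coordinates as identity and 4.67 without approximate classes, in place of 10.3. Dbp differed by 3 in place of 1.67 with all coordinates as identity. Events specific to saline numbered 0, and to morphine 1, at annotated positions only, and 0 and 0 without Per3. With a library left out they ranged from 1 to 4 for saline (3 without saline library 1, 4 without saline library 2) and from 2 to 8 for morphine (8 without morphine library 2, 5 without morphine library 3), since fewer libraries have to list an event. The Per1 difference of -1 lay between -3.17 and 1.17, with 1.17 without saline library 1 and 0.333 without morphine library 2. The Per2 difference of -0.333 lay between -1 and 0.5, with 0.5 without saline library 2 and 0.167 without morphine library 2. Dbp differed by -0.333 when spanned introns were counted. Leaving out Per3 and counting spanned introns were chosen after seeing the data, and the cause of the other reversals was not tested. No paired analysis was possible because the labels carry no replicate numbers that tie a saline to a morphine library.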
